A study of Mus musculus with 4 samples.

Results

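The regions described here are the summits of GATA2 chromatin occupancy that lie between genes and far from them, in female mouse germ cells at E13.5 (embryonic stage). A summit was kept when it lay outside the body of every protein-coding gene of the RefSeq GRCm38.p6 annotation (mm10) and over 5 kb from every start or end of such a gene. Of the 995 summits in the list, 246 met the rule (24.7%, 95% exact binomial interval 22.1% to 27.5%). Among them 11 lie in a ribosomal RNA region of chromosome 17 and are described apart, which leaves 235 summits in 226 intervals.

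Occupancy was measured by CUT&Tag, in which an antibody on the chromatin of bead-bound cells tethers the transposase Tn5, which cuts and tags the DNA near the bound protein. The fetuses came from C57BL/6J females mated with BVSC males. The germ cells were purified from ovaries as positive for BVSC, a pair of reporter transgenes (Blimp1-mVenus and Stella-ECFP). The 4 libraries formed 2 groups of 2, all BVSC and trypsin-digested: 2 with the GATA2 antibody and 2 inputs with none. The 1 peak list was taken as pooled over both GATA2 libraries, so no value below has a replicate error or a test across samples. Binding of GATA2 and cutting of open chromatin in general cannot be told apart here. A peak list holds no expression, and the labelled cell type could not be checked against its markers.

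GATA2 is a zinc finger transcription factor that recognises a short GATA sequence, and it is best known for its part in blood stem cells. GATA factors often act at enhancers, which are regulatory sequences that can lie far from the gene they control, on either side and sometimes beyond a nearer gene. Position alone does not tell which gene an enhancer serves. For this reason both flanking protein-coding genes are given, the last to end before the summit and the first to start after it. Distances to them run to the nearer end of the annotated gene, and a start site in the promoter table can lie farther off.

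No genome sequence was used here, but RefSeq's promoter table of the same build gives the bases around annotated start sites, including those of long non-coding RNA (lncRNA) genes. The intervals of 8 intergenic summits overlapped such a window (250 bases before to 50 after a start site), each belonging to a lncRNA gene. The letters searched for, on both strands, were GATA with A or T before it and A or G after it, such as AGATAA. Of these 4 motifs of 6 letters, one that ends in AG can share those letters with the start of the next, and overlapping matches were counted separately. They occurred in 2 of the 8 windows, against 29.8% of all 32851 promoter windows and 36.6% of the 11588 lncRNA windows of the same length. Of 399 windows under the intervals of all other summits, 25.3% held them. A match describes letters only. The windows printed here are both that hold the letters, the one with the highest fold and the one whose summit lies closest to the start site, each 5′ to 3′ on the strand of its gene with matches in capitals.

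Gm41256: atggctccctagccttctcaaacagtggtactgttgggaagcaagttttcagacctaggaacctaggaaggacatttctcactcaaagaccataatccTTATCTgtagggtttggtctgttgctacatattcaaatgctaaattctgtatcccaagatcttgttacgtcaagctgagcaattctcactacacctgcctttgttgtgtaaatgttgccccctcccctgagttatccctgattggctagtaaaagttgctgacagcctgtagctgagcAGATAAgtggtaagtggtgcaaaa

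Gm46298: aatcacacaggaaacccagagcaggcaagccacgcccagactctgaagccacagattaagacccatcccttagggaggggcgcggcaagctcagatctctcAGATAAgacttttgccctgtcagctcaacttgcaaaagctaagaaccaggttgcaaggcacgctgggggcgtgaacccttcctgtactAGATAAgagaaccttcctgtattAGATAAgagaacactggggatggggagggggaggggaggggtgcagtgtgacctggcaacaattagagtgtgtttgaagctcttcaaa

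Chaserr: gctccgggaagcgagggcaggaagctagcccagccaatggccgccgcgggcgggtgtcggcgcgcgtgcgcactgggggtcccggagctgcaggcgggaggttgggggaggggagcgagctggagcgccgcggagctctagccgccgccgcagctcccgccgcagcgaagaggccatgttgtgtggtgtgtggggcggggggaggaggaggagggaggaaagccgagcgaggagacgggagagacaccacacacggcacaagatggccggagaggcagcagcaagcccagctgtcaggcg

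D230017M19Rik: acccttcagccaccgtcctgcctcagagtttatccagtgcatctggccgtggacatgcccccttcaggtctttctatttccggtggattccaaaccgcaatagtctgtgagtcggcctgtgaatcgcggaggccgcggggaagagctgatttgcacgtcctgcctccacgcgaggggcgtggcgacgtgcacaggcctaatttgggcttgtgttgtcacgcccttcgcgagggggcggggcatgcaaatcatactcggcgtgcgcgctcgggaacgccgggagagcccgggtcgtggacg

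The Gm41256 window (chr15:5135231-5135530, minus strand) held 1 match in each orientation, at positions 99 and 277 of the printed run, and both lay inside the peak interval. Their nearer ends were 86 and 87 bp from the summit, which stands between them at position 190. The summit (chromosome 15, 5135341) had a fold enrichment of 4.86 on 11 fragments (95% Poisson interval 5.49 to 19.7) and a −log10 q of 3.37. Its flanks are Rpl37, a ribosomal protein gene 16.2 kb away, and Prkaa1, which encodes a catalytic subunit of the energy sensor AMPK, 8.52 kb away.

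The Gm46298 window (chr11:108910910-108911209, minus strand) held 3 matches, at positions 102, 190 and 213, all in the form AGATAA. They lay outside the interval, whose overlap with the window was 62 bp, and the closest was 97 bp from the summit. That summit was weak (3.34-fold on 8 fragments) and its −log10 q of 0.30 misses the 0.05 level. It lies 6.62 kb upstream of Axin2, a gene encoding a scaffold of the beta-catenin destruction complex, and 50.6 kb from Cep112.

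The Chaserr window (chr7:73558346-73558645, minus strand) and the D230017M19Rik window (chr1:72243743-72244042, plus strand) held no match. Chaserr is a lncRNA known to lower the expression of its neighbour Chd2, a chromatin remodeller gene. The summit there had a fold of 5.93 on 14 fragments (7.65 to 23.5) with a −log10 q of 5.20, at 329 bp from the Chaserr start site and 16.98 kb from Chd2, with Fam174b 182 kb away on the other side. The D230017M19Rik summit had a fold of 5.27 on 13 fragments at 21 bp from the start site, between Mreg (31.7 kb) and Pecr (15.2 kb).

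The other 4 windows held no match. They belong to 5730405O15Rik (3.79-fold, between AA414768 and Usp9x, a deubiquitinase gene), Scpep1os (4.15-fold, between Akap1 and Scpep1), 1700096K18Rik (4.47-fold, between Cct8l1 and Xrcc2) and Gm33148. The Gm33148 summit (4.42-fold on 10 fragments, −log10 q 1.55) lies between Mrpl23, 70.5 kb away, and the imprinted growth factor gene Igf2, 39.5 kb away. GC content of the 8 windows ran from 44% (Gm41256) to 74% (1700096K18Rik).

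Annotated lncRNA genes covered many of these summits. Of the 235, 56 (23.8%) lay inside the body of a lncRNA gene, against 13.8% of all 995 summits and 7.66% of summits deep inside protein-coding genes. The annotation was the same for all classes, but lncRNA genes take up different shares of each kind of territory, and that was not tested. Of the 56, 34 had a q of at most 0.05 (60.7%, exact interval 46.8% to 73.5%), beside 67.7% of all 995 summits. Of the 179 outside lncRNA genes, 136 had such a q (76.0%, 69.0% to 82.0%). The intervals overlap, which is no test of the difference, and none was run. Of the 228 on chromosomes with entries in the promoter table, 11 were within 1 kb of a lncRNA start site (4.82%, beside 6.65% of all summits and 1.33% of those deep inside genes).

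The fold enrichment of a summit is the peak caller's ratio of scaled GATA2 signal to local background, with 1 added to both. Over the 235 summits its median was 4.50 (quartiles 3.72 and 5.57, range 2.86 to 14.6), against 4.15 (3.44 and 5.22) over all summits in the list. Summits deep inside genes had a median of 4.42 and those within 1 kb of gene ends 4.07. Of the 235, 170 had a q of at most 0.05 (72.3%, exact interval 66.2% to 78.0%), with 67.7% as the background over the whole list. A −log10 q of 5 or more was reached by 51 (21.7%, background 17.8%), and a fold of 10 or more by 10 (4.26%, background 3.32%). The exact interval for q holds the background share, and the other shares lie close to theirs.

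**Figure D1:**
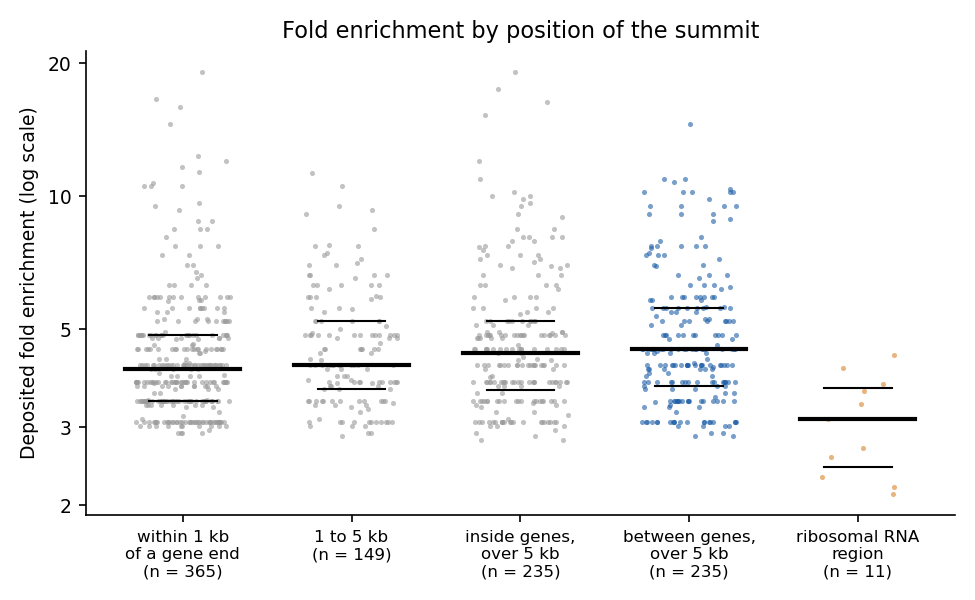
Deposited fold enrichment (log scale) of every summit, by position class, with the ribosomal RNA region apart. Each point is 1 summit, the thick line the median and the thin lines the quartiles. The median of the intergenic summits is 4.50, beside 4.42 for summits deep inside genes and 4.07 for those within 1 kb of a gene end, and the point clouds overlap.

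Fragment numbers were inferred from the deposited fold and p. The median intergenic summit rested on 10 GATA2 fragments (quartiles 8 and 14, range 6 to 40), with 9 over the whole list. The inferred control background was above its genome-wide level of 0.0608 fragments per position at 70 of the 235 (29.8%), close to the 29.9% of all summits. Intervals had a median width of 352 bp, counted once per summit, and 342 bp over the list.

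Distance from genes varied widely. The nearest boundary, meaning either end of a protein-coding gene, was a median of 28.7 kb away (quartiles 12.3 and 71.5, largest 474 kb). The bin from 5 to 10 kb held 41 summits, 10 to 20 kb held 60, 20 to 50 kb held 59, 50 to 100 kb held 35, 100 to 200 kb held 25 and 200 to 500 kb held 15. The share with a q of at most 0.05 was 73.2% in the nearest bin, 80% at 50 to 100 kb and 53.3% in the farthest (8 of 15, exact interval 26.6% to 78.7%). The median fold was 4.50 at 5 to 10 kb, 4.86 at 50 to 100 kb and at 100 to 200 kb, and 3.72 in the farthest bin, which holds under 20 summits. All 10 summits of fold 10 or more lay under 100 kb from a gene, as did 195 of the 235 summits of any fold.

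**Figure D2:**
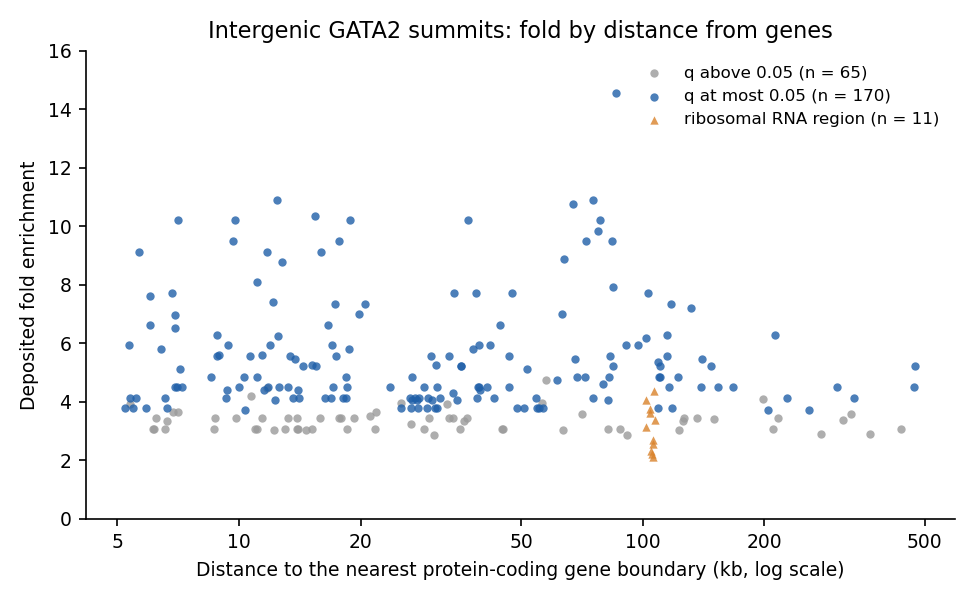
Deposited fold enrichment against distance to the closest end of a protein-coding gene (kb, log scale) for all 246 intergenic summits, 1 point each, coloured by whether q was at most 0.05, with the ribosomal RNA region as triangles. Folds of 10 or more are spread between 7.05 and 86.0 kb, and the 15 summits beyond 200 kb reach at most 6.28.

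The rule requires over 5 kb, and folds on either side of that limit overlapped. Just inside it were summits nearest to Araf (5.23 kb, 3.79-fold), Gm11634 (5.35 kb, 5.93-fold), Nrsn1 (5.36 kb, 4.15-fold), Zscan5b (5.37 kb, 3.92-fold) and Fitm2 (5.45 kb, 3.79-fold). Just outside were those nearest to Emb (4.93 kb, 3.67-fold), Tmem132e (4.91 kb, 4.86-fold), Ncs1 (4.87 kb, 6.17-fold), the matricellular protein gene Ccn2 (4.65 kb, 9.31-fold) and Zbtb45 (4.5 kb, 3.34-fold).

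The strongest intergenic summit lay in a gap of 186 kb between Syk, a tyrosine kinase gene of immune receptor signalling, and Auh, which encodes a mitochondrial enzyme of leucine breakdown. Its fold was 14.6 on 39 fragments (27.7 to 53.3), with a −log10 q of 22.1 (chromosome 13, interval 52748679 to 52749535). Syk ends 100.3 kb to one side and Auh 86.0 kb to the other, and the summit is downstream of both. A neighbouring interval held 2 more summits, of 5.22-fold and 9.49-fold. All 3 fall within 1.88 kb and inside the lncRNA gene BB123696.

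The next summits by fold lay upstream of both of their flanking genes. One of 10.9-fold on 28 fragments (18.6 to 40.5; chromosome 10, summit 67458977) stood 75.5 kb upstream of Egr2, a zinc finger factor gene of the hindbrain and of myelinating cells, and 174 kb upstream of the autophagy gene Nrbf2. Another of 10.9-fold (chromosome 11, 79327197) stood 12.4 kb upstream of Nf1, which encodes neurofibromin, an inhibitor of RAS, and 72.5 kb upstream of Wsb1, a ubiquitin ligase adaptor gene. A summit of 10.7-fold on 31 fragments (chromosome 3, 51157115) was 67.3 kb upstream of Noct, a clock-regulated phosphatase gene, and 658 kb upstream of the cystine transporter gene Slc7a11. These 3 summits have gene starts on both sides.

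A summit of 10.4-fold (27 fragments, chromosome 5, 25533472) lay 15.4 kb from Cct8l1 and 156 kb from Xrcc2, a gene of recombinational DNA repair. A fold of 10.2 on 26 fragments (16.98 to 38.1) was shared by 5 summits, with a −log10 q of 12.9. The first was 9.76 kb downstream of Spred2, which encodes an inhibitor of the RAS and ERK pathway, and 28.5 kb from Actr2 of the actin-nucleating Arp2/3 complex. The second lay 7.05 kb upstream of the small GTPase gene Arl4d, with Rdm1 at 22.4 kb.

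The third was between the chaperone gene Hsp90aa1 (19.8 kb) and Wdr20 (18.9 kb), in a group with 2 summits of 3.08-fold that spans 9.14 kb. The fourth lay 78.2 kb upstream of the secreted ligand gene Prok2 and 424 kb from Rybp, which encodes a subunit of variant Polycomb repressive complexes. The fifth lay 37.0 kb upstream of Gadl1 and 537 kb from Stt3b, an oligosaccharyltransferase gene.

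The last 5 of the first 15 had folds of 9.84 or 9.49, and 1 of them is the Syk and Auh summit of 9.49-fold named above. The summit of 9.84-fold was 77.3 kb downstream of Efnb2, encoding the membrane ligand ephrin-B2, and its other flank, the bile acid transporter gene Slc10a2, was 3435 kb away. A summit of 9.49-fold separated the amino acid transporter genes Slc38a2 (223 kb) and Slc38a4 (72.4 kb). Another lay 25.4 kb upstream of Sos1, which encodes an activator of RAS, with Cdkl4 at 17.7 kb. One more was 9.68 kb from Arglu1 and 506 kb from Fam155a. The 15 share a −log10 q of at least 11.97, but the nearest flank ranged from 7.05 to 86.0 kb away and 14 different gaps between genes are involved.

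**Figure D3:**
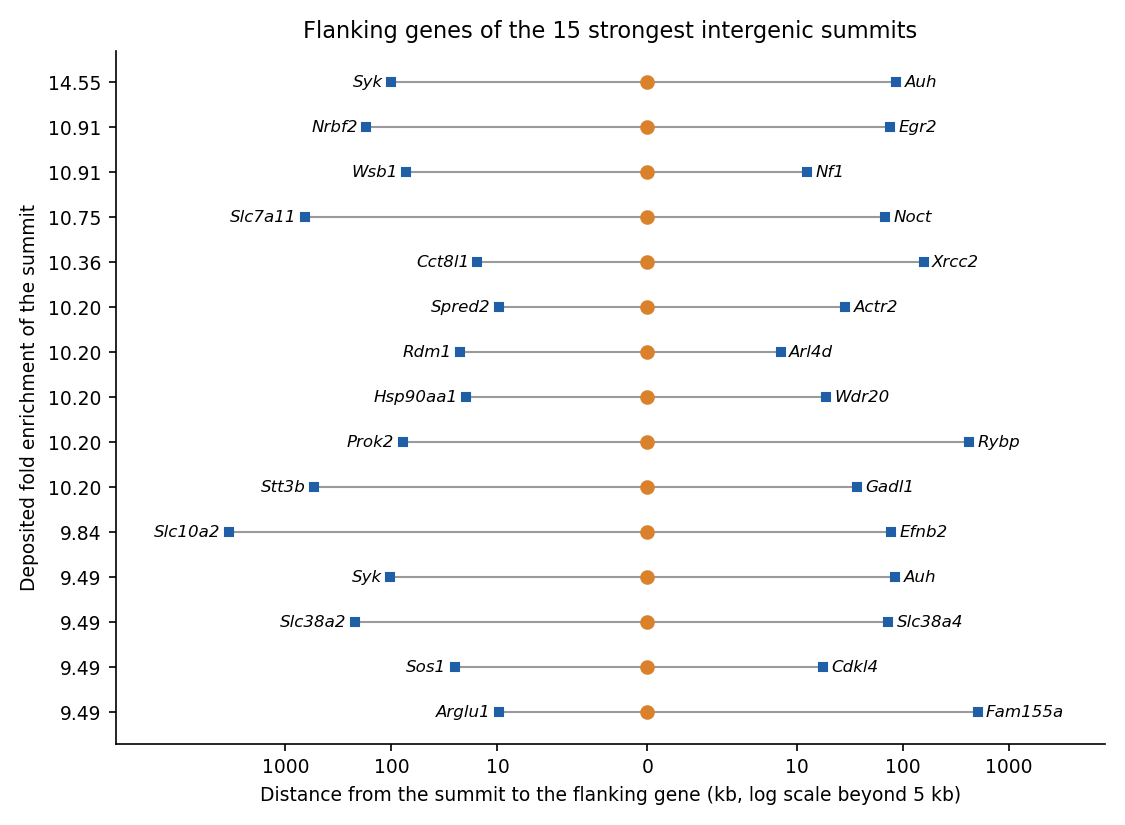
Distance (kb, log scale beyond 5 kb) from each of the 15 intergenic summits of highest fold, the circle at 0, to its left and right flanking protein-coding genes, the squares. Rows are labelled by fold enrichment. The nearer flank lies 7.05 to 86.0 kb away, and the farther one up to 3435 kb.

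Strand was known for part of the flanks, 323 of 411 genes. Among the 185 summits whose nearer gene had a strand, 112 (60.5%) lay upstream of it, while 53.4% of the eligible intergenic bases with a known strand lie upstream of their nearer gene. Of the 148 with both strands known, 48 lay upstream of both flanks, 73 of 1 and 27 of none. Among summits with a q of at most 0.05, 88 of 133 (66.2%) were upstream of the nearer gene. Genes without a strand were left out of these counts, and no difference from the 53.4% of eligible bases was tested.

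Eligible sequence, between protein-coding genes and over 5 kb from each, made up 1423 Mb in 12000 gaps, and held 1.65 summits per 10 Mb. The 235 summits fell in 209 gaps: 187 with 1 summit, 18 with 2 and 4 with 3. A flank within 100 kb was present for 195 summits, on both sides for 110, and 40 had none. In all, 274 protein-coding genes were a flank within 100 kb, a background of 1.27% of the 21631 genes on these chromosomes. Shares of genes depend on how much eligible sequence surrounds a gene, so the number of summit and gene pairs per Mb of that sequence is given too. It was 0.308 over all genes (305 pairs).

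Genes of the 13 lists used here, 359 in all, were flanks more often than genes at large: 19 (5.29%, against 1.27%), with 0.918 pairs per Mb. They also had more eligible sequence, a mean of 66.8 kb per gene against 45.8 kb. Members of 13 transcription factor families, chosen by symbol, gave 21 flanks of 488 genes (4.30%), with 0.611 pairs per Mb and a mean of 83.8 kb. None of these differences was tested, and the lists were composed with earlier results of these data known.

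**Figure D4:**
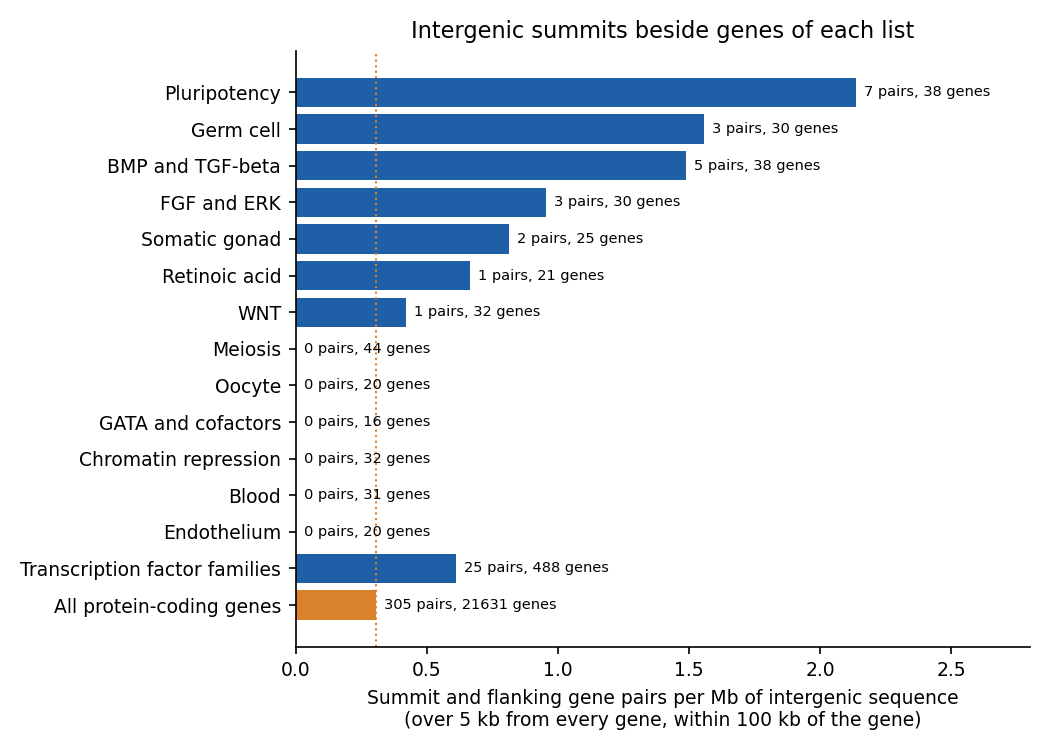
Number of pairs of an intergenic summit and a flanking gene within 100 kb, per Mb of intergenic sequence over 5 kb from every gene, for genes of each list (bars, with the number of pairs and genes). The dotted line marks all protein-coding genes, 0.308 per Mb, and 6 of the 13 lists have 0 pairs. Neighbouring summits count separately. All 3 germ cell pairs are summits of 1 interval beside Prdm1, and Sox2 gives 2 of the 7 pluripotency pairs. No error is shown, since most bars rest on 7 pairs or fewer.

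Pluripotency genes, which keep early germ cells and stem cells undifferentiated, had the most pairs. Of 38, 6 were a flank within 100 kb (15.8%, against 1.27% of all genes), with 2.14 pairs per Mb against 0.308. Prdm14, a regulator of primordial germ cells, had the strongest, a summit of 7.71-fold on 19 fragments (−log10 q 8.91) at 38.6 kb, with Slco5a1 82.0 kb away on the other side. A summit of 5.57-fold lay 79.4 kb from Sall4, a zinc finger factor gene, and nearer, at 46.8 kb, to Zfp64.

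Sox2, which encodes a core pluripotency factor, had a pair at 41.1 and 45.1 kb downstream (4.50-fold on 10 fragments and 3.08-fold on 6), and its other flank, Atp11b, is 1057 kb from the weaker one. The gap holds 3 summits in all. Klf5 (26.9 kb) and Tbx3 (82.1 kb) each had 1 summit of 4.07-fold on 9 fragments, with Klf12 and Med13l as the opposite flanks. The summit 51.3 kb upstream of Esrrb was of 3.08-fold on 6 fragments, with a −log10 q of 0.30, and Gpatch2l was nearer, at 15.2 kb. In all, 5 of the 6 had a summit with a q of at most 0.05, and Esrrb did not.

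Of 30 germ cell genes, Prdm1 alone was a flank within 100 kb (3.33%, against 1.27% of all genes), with 1.56 pairs per Mb against 0.308. It encodes BLIMP1, the determinant of germ cell fate, and 1 of the 2 reporter transgenes of the sort is named for it. A single interval held 3 summits, 11.4 to 12.5 kb outside the annotated boundary of the gene on its upstream side. They were of 5.60-fold on 17 fragments, 7.43-fold on 25 and 6.24-fold on 34. The closest Prdm1 start site in the promoter table is 81.2 to 82.3 kb from them. These 3 summits of 1 interval are all the pairs of the list. The opposite flank, Prep, lies 526 kb away. Around them the inferred control level was 0.325 to 1.22 fragments per position, against 0.0608 genome-wide. The part of the transgene in these values was not tested.

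BMP and TGF-beta genes, whose signals induce germ cells and act again at the onset of meiosis, gave 5 flanks of 38. This was 13.2%, against 1.27% of all genes, with 1.49 pairs per Mb against 0.308. The strongest summit lay 11.1 kb upstream of Smad3, encoding a TGF-beta effector, at 8.09-fold on 24 fragments (−log10 q 7.57). The inhibitor gene Smad6 was on its far side at 184 kb. A summit 45.0 kb from the inhibitory Smad7 had 5.22-fold, but Dym was nearer. Summits of 4.60-fold and 4.15-fold lay 79.8 kb from the activin subunit gene Inhbb, opposite Gli2, and 83.9 kb upstream of Id3, which encodes an inhibitor of E proteins. For Id3 the gene Rpl11 was nearer, at 6.55 kb. The summit 21.8 kb upstream of the ligand gene Bmp4 (3.66-fold on 9 fragments, −log10 q 0.30) did not reach a q of 0.05.

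FGF and ERK genes gave 3 flanks of 30 (10%, against 1.27% of all genes), with 0.954 pairs per Mb against 0.308. They were Spred2, named above, the immediate early gene Fos (18.5 kb upstream, 4.50-fold on 10 fragments) and the receptor gene Fgfr4 (21.7 kb downstream, 3.44-fold on 7 fragments, q above 0.05). From the WNT list of 32 only Axin2 was a flank (3.1%, and 0.422 pairs per Mb), with the weak summit described above. Each of these 2 lists rests on 3 pairs or fewer.

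Among lists of cells other than germ cells, somatic gonad genes gave 2 flanks of 25 (8%, against 1.27% of all genes, and 0.814 pairs per Mb against 0.308). They were Sox9, which directs Sertoli cell fate, at 83.0 kb from a summit of 5.57-fold inside the lncRNA gene Gm46301, and Irx5, at 91.3 kb from a summit of 2.86-fold with a −log10 q of 0. Blood genes gave 0 of 31 and endothelial genes 0 of 20. Also at 0 were meiosis (44 genes), oocyte (20), GATA factors and cofactors (16) and chromatin repression (32). These 6 lists had between 0.913 Mb (oocyte) and 1.36 Mb (endothelial) of eligible sequence each. At the rate over all genes, 0.308 pairs per Mb, so small a territory holds under 1 pair, and a shortfall could not be seen in any of them.

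Among transcription factor genes not yet named, several had summits with a q of at most 0.05. Tfap2a, a gene of neural crest and surface ectoderm, lay 63.9 kb from a summit of 8.89-fold on 40 fragments, the highest fragment number among intergenic summits outside the ribosomal RNA region, at a place where the control background was 0.812. Foxb1 was 8.81 kb from one of 5.57-fold. Neurog1, a neuronal bHLH gene, had 1 on each side, of 5.57-fold 13.4 kb upstream and 3.79-fold 26.7 kb downstream. Klf6 (29.3 kb upstream, 4.15-fold) and Cebpb (30.9 kb downstream, 4.50-fold) each had 1. Flanks only of summits with a q above 0.05 included Cebpa (3.44-fold) and Pax7 (2.86-fold), beside Esrrb and Irx5 above.

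Summits of these regions came mostly alone. When summits less than 50 kb apart were joined, 192 stood by themselves, 17 groups had 2 and 3 groups had 3. The groups of 3 are those between Syk and Auh, between Hsp90aa1 and Wdr20 and beside Prdm1. Of the 5 summits farthest from any gene, 4 had folds at or below the median: 4.50-fold between Fgf9 (551 kb) and 1700129C05Rik (469 kb), 3.08-fold between Sorcs3 (437 kb) and Sorcs1 (900.3 kb), 2.91-fold between Mn1 (367 kb) and Cryba4 (423 kb) and 4.15-fold between Kazn (534 kb) and Prdm2 (334 kb). The Fgf9 summit rested on 10 fragments and the Sorcs3 summit on 6. Of these 4, the Sorcs3 and Mn1 summits had a q above 0.05.

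Over the whole list, 23.6% of summits were intergenic outside the ribosomal RNA region. By chromosome this share ran from 15.9% on chromosome 7 (13 of 82) to 40% on chromosome 13 (20 of 50). Eligible sequence was not counted per chromosome, and the spread was not tested. The closest annotated microRNA hairpin was Mir6380, 3.27 kb from a summit of 7.91-fold between Ddit4l and H2az1. A hairpin lay within 20 kb of 6 summits, with no count for the other classes to set beside it.

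The ribosomal RNA region stands apart from all the others. It holds 11 summits in 2 intervals, 39843333 to 39846717 and 39848168 to 39848614 of chromosome 17, at the ends of Rn18s-rs5, a pseudogene of 18S ribosomal RNA. The protein-coding flanks are the exocrine peptide genes Esp15, 198 to 203 kb away, and Esp38, 102 to 107 kb away. Both summits of the second interval lie inside the lncRNA gene AY036118. Copies of ribosomal RNA genes share sequence, so reads of other copies can pile up at one of them.

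In that region 41 to 87 GATA2 fragments lay at each summit, with a median of 59, above the maximum of 40 elsewhere among the intergenic summits. The inferred control background was 3.04 to 13 fragments per position, while the highest at any other intergenic summit was 1.22 and at summits inside or nearer to genes 3.0. Folds were low, 2.12 to 4.37 with a median of 3.13. The plain ratio of scaled signal to background ran from 2.229 to 5.09. In 5 of the 11, q was at most 0.05. The part of repeated sequence in these values was not tested.

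**Figure D5:**
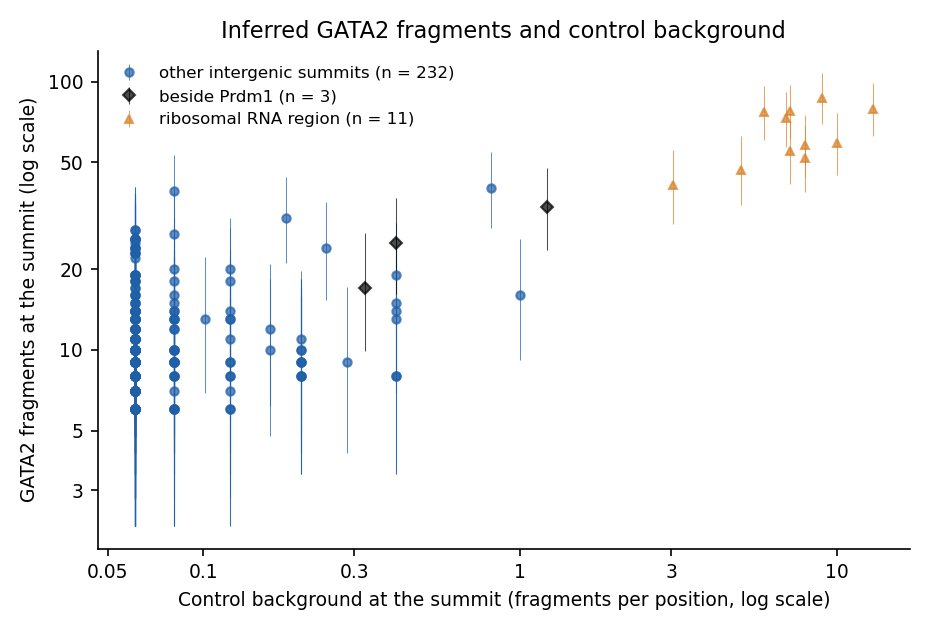
GATA2 fragments at each intergenic summit against the control background there (fragments per position), both inferred from the deposited values and on log scales. Bars are 95% Poisson intervals. The 11 summits of the ribosomal RNA region lie at the upper right, with 41 to 87 fragments over a background of 3.04 to 13, and the 3 beside Prdm1 over 0.325 to 1.22.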

How the data were processed

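The 4 libraries were grouped by title. The only file was 1 peak list in narrowPeak layout, without a header, for the pooled GATA2 libraries. The submitters' processing notes name the build GRCm38 (mm10) and the tools MACS2 2.2.6, Bowtie2 2.3.5.1, Trimmomatic 0.39, bedtools 2.29.2, Picard 2.23.0 and SAMtools, with roles, parameters and control libraries not given in the sources used here. Deposited values of fold enrichment (a ratio), the −log10 of p and of q, and the display score are the peak caller's own values for each peak.

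Fragment numbers were inferred, since depth is unknown: fold is (scaled pileup + 1) / (background + 1) and p a Poisson tail. With a scale of 0.378 and a genome-wide background of 0.0608, whole fragment numbers gave back the p of all 995 summits within 0.000448 (0.001 allowed, on the −log10 scale). On 995 simulated summits the method returned 994 fragment numbers. The simulated backgrounds did not reach the levels beside Prdm1 and Tfap2a or in the ribosomal RNA region, so recovery there was not tested. Background counted as raised when over 1% above the genome-wide level. Poisson and exact binomial intervals (95%) cover counting error only.

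Gene positions came from a RefSeq table (21900 protein-coding and 12731 lncRNA genes), and strands and sequences from RefSeq's promoter table of GRCm38.p6 (27025 genes). Exons and UTRs were not used. The planned motif search around summits needs a genome and was replaced by the promoter windows, after seeing the data. All 359 listed symbols were matched.

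Regions are not replicates, so no test was run. Genes named are both flanks of the 15 summits of highest fold, listed genes flanking a summit within 100 kb, transcription factor genes flanking one with a q of at most 0.05, the 5 farthest summits, 5 on each side of the 5 kb limit and groups of 3. Some genes this rule names are not reported here. The lncRNA and microRNA genes, Cebpa and Pax7 were chosen after their values were seen. Regions and lists were chosen with earlier results of these data known. Python 3.11.15, pandas 2.3.3, NumPy 2.4.6 and SciPy 1.17.1 were used.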

Additional observations from a re-analysis of the deposited data

How the results depend on the processing

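Of 44 values under alternative settings, 26 stayed within 1.5 times the reported count or within the 95% interval of the reported median or share, and 18 did not. The 246 summits became 52 at a −log10 q of 5 or more, 86 over 50 kb from genes and 134 with all annotated genes, non-coding ones included. The median fold, 4.42 with the ribosomal RNA region, was 4.86 at a q of at most 0.05 and 7.71 at a −log10 q of 5 or more. The median distance to a boundary, 30.0 kb, was 20.2 kb at a −log10 q of 5 or more, 38.1 kb over 10 kb from genes, 105.6 kb over 50 kb and 15.5 kb with all annotated genes. The 19 listed flanking genes became 5 at a −log10 q of 5 or more, 4 over 50 kb, 5 with all annotated genes and 12 within 50 kb. The 21 transcription factor genes became 4, 4, 6 and 13 under the same settings, and 40 at any distance. Stricter limits and more annotated genes leave fewer summits by construction. The share with a q of at most 0.05 stayed between 69.8% and 73.1% in all 5 alternatives run for it. No paired analysis was possible because the list holds no value of a single library, and leaving out a replicate could not be run for the same reason. Depth limits the weaker summits: with 10 fragments the Poisson interval is 4.795 to 18.4.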
